A study of Homo sapiens with 7 samples.

Results

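Glycolysis splits glucose into pyruvate in the cytosol, and the pyruvate is then either reduced to lactate and exported or carried into mitochondria and oxidised by the pyruvate dehydrogenase complex. Several of these steps are served by isoenzymes encoded by different genes, which differ in tissue distribution and in regulation. Proliferating tumour cells often convert much of their glucose to lactate even when oxygen is present, a behaviour known as aerobic glycolysis. The 35 genes described here cover 16 steps of this route, from the glucose transporters of the plasma membrane to the monocarboxylate transporters that release lactate, together with the kinases of pyruvate dehydrogenase and the phosphoglucomutases that link glucose 6-phosphate to glycogen. They were chosen by gene symbol, without use of any measured value but with earlier results of these data known, from 36337 gene names on the array. All 35 were found, with 47 of the 50599 probes.

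The RNA came from HCT116, a human colon carcinoma line of near-diploid karyotype, in the derivative that carries the fluorescent histone fusion H2B-GFP. Cells were treated with bafilomycin A1, an inhibitor of the vacuolar proton pump that acidifies lysosomes, at 10 nM for 30 h, and RNA from 4 biological replicates was hybridised to 1 single-colour (Cy3) Agilent array each. Slide and scan day were the same for all 4 (1 slide, 1 day), so neither could be examined as a batch. The series was designed to set this treatment against untreated cells of the same line, but the 3 untreated samples were not analysed here, and no change caused by bafilomycin A1 was computed. What the arrays do show is which genes of the pathway were detected in the treated cells, how closely the replicates repeated each of them, and how the isoenzymes of a step and the probes of a gene moved from array to array.

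A level below is the log2 background-subtracted signal of a probe minus the median of its array, where that median lay between 63.5 and 77.1 signal units. For a gene with several probes the median over its probes was taken. Hybridisation strength differs between probes, so a level is compared between arrays only, never between genes. A gene was called detected when the scanner software marked at least 1 of its probes as well above background on all 4 arrays. In a bulk extract, a change in the number of cells of a kind and a change of RNA per cell cannot be told apart.

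The results turn on a few probes, 60 bases each, which are shown here with G and C in capitals because the way replicate 3 departed from the other arrays was related to the GC content of the probe. The positions are those given for GRCh37. The PFKL probe lies at chr21:45744490-45744749 on the plus strand and, at 260 bases of genome for 60 bases of probe, runs across a splice junction. The GAPDH probe lies at chr12:6646918-6646977 on the plus strand and the PDK3 probe at chrX:24546208-24546267 on the plus strand. The ENO1 probe lies at chr1:8924054-8924113 on the minus strand, and the PGAM1 probe with the higher GC content at chr10:99190177-99190236 on the plus strand. LDHA has a probe at chr11:18428789-18428848 on the plus strand. Its other probe, although assigned to the same LDHA transcript, was given the position chr9:14921817-14921876 on the minus strand. The first 4 of these probes have the same GC content of 55% and are followed by both LDHA probes and by PDK3.
PFKL: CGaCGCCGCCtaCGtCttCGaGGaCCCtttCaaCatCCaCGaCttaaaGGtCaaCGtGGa
GAPDH: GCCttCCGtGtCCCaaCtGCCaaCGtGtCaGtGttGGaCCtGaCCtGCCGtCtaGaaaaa
PGAM1: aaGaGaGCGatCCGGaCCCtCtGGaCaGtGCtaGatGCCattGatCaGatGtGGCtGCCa
ENO1: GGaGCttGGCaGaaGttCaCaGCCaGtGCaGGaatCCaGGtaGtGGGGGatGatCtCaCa
LDHA, chromosome 11: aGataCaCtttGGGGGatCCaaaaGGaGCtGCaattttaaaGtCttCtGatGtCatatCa
LDHA, chromosome 9: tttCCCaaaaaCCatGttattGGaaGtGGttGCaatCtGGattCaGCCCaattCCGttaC
PDK3: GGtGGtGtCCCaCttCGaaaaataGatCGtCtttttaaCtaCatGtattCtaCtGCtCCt

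Nearly the whole route was detected in the bafilomycin A1-treated cells: 34 of 35 genes, compared with 52.5% of all gene names on the array. Each of the 16 steps had at least 1 detected gene. The exception was PFKFB1, the liver and muscle form of the bifunctional enzyme that makes and degrades fructose 2,6-bisphosphate, an activator of phosphofructokinase-1. Its single probe gave levels of -2.65, -2.30, -2.02 and -2.12 on replicates 1 to 4 and was well above background on none of them. Isoenzymes best known from other tissues were among the detected genes, such as the muscle forms PFKM, PGAM2 and ENO3, the brain aldolase ALDOC and the neuronal enolase ENO2. Of the 47 probes, 42 were detected on all 4 arrays and 2 on none. A spot marked as an outlier was left out and counted as not detected. This kept the brighter probes of SLC2A1 and PFKFB3 out of the 42. No spot of these genes was saturated.

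**Figure D1:**
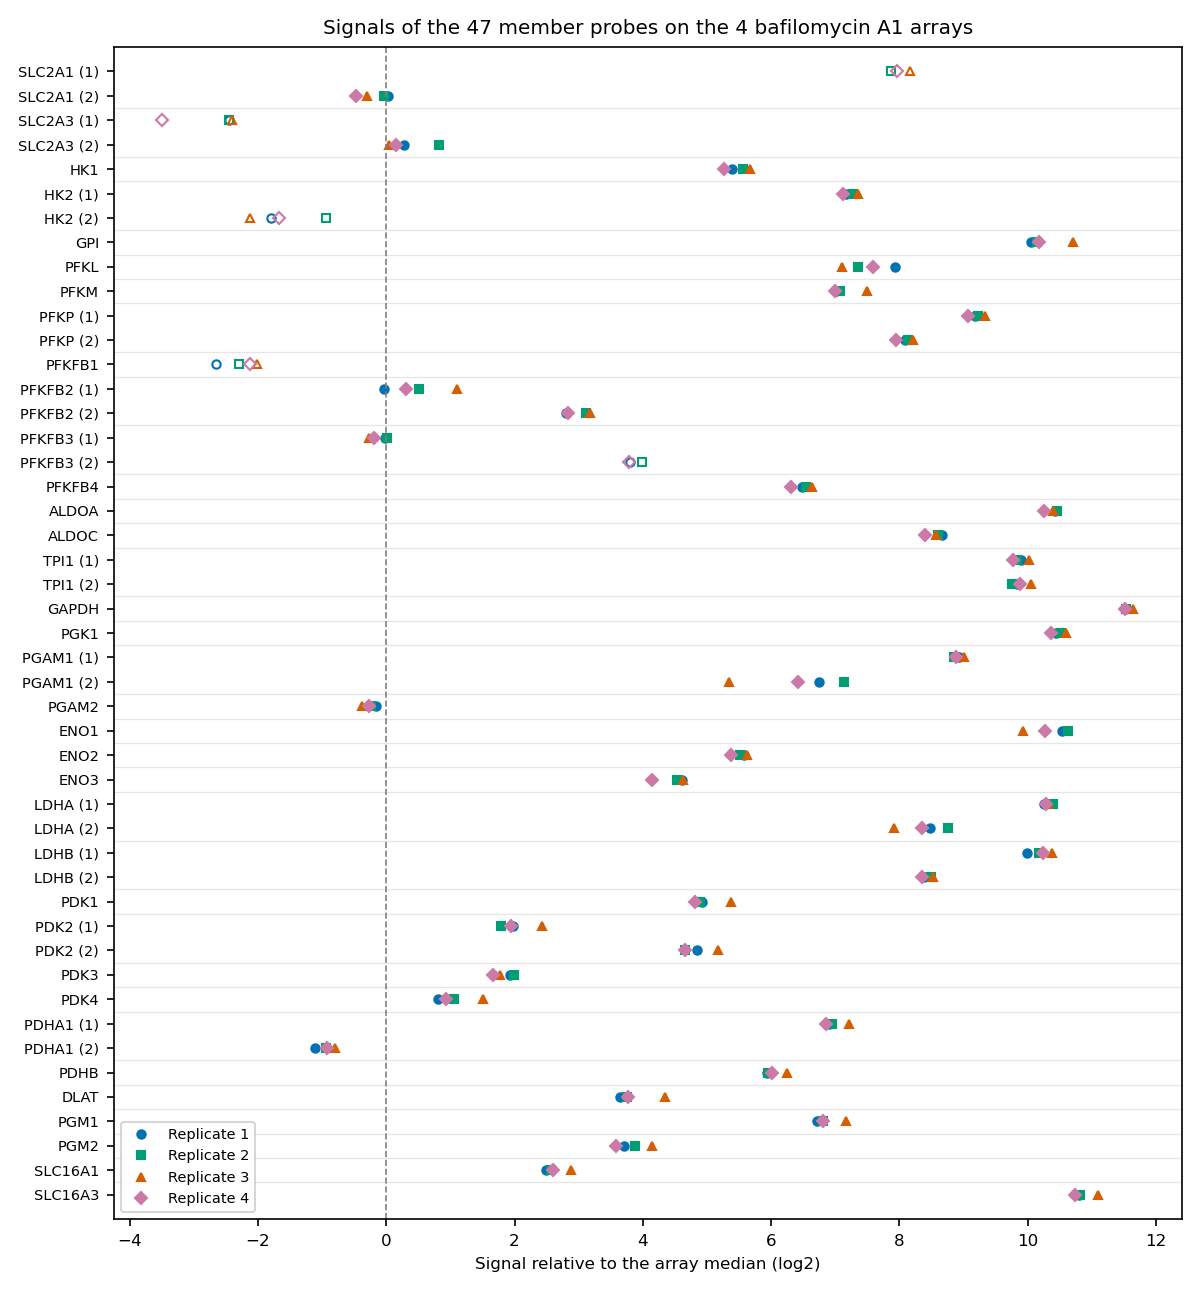
Level of each of the 47 probes (log2 signal relative to the array median, horizontal axis) on the 4 bafilomycin A1 arrays, listed by gene with probes numbered where a gene has 2; marker shape gives the replicate, and open markers stand for probes that were not detected on all 4 arrays. The 4 replicates mostly lie close together within a probe, whereas probes of 1 gene can lie far apart, by 8.19 between the means of the SLC2A1 probes.

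The replicates repeated these genes about as closely as they repeated other genes. The median SD over the 4 arrays was 0.19 on the log2 scale for the 34 detected members and 0.21 for all 19083 detected genes. The sets were not matched for probe signal. Member probes detected on all 4 arrays had a median of 6.69, and all probes so detected had 2.31. The highest and lowest array differed by more than 1.4-fold, the fold used in the study's methods, for 15 of the 34 members, beside 46.4% of all detected genes. Among the members replicate 3 carried much of this spread: without it the median SD fell to 0.10 and 4 members spanned more than 1.4-fold. Neither value was computed for all detected genes without replicate 3, which was the highest array for 48.5% of them. The 15 members were both glucose transporters, HK2, GPI, PFKL, PFKM, PFKFB2, PFKFB3, PGAM1, ENO1, PDK1, PDK2, PDK4, DLAT and PGM2. With outlier spots kept there were 13, since SLC2A1 and PFKFB3 then spanned less. With only probes well above background on all arrays there were also 13, and HK2, whose detected probe spanned 1.18-fold, was not among them. In 3 of the 34, SLC2A1, PFKM and PFKFB3, a single array lay beyond the critical value of Dixon's ratio (gap over range), beside 8.48% of all detected genes. With outlier spots kept there were 3 as well, but PFKFB3 was replaced by GAPDH with replicate 3 high, and in SLC2A1 replicate 4 was then the low one, at 3.75 against 3.92 to 3.93.

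The tightest genes were enzymes of the middle of the pathway. GAPDH, which oxidises glyceraldehyde 3-phosphate and reduces NAD+, had levels of 11.51, 11.53, 11.65 and 11.52 on replicates 1 to 4 (11.55 ± 0.06, SD, n = 4). ALDOA, the aldolase of muscle and most other tissues, had levels of 10.42, 10.45, 10.39 and 10.25 (10.38 ± 0.09, SD, n = 4). PGAM2, the muscle phosphoglycerate mutase, had levels of -0.15, -0.24, -0.38 and -0.27 (-0.26 ± 0.09, SD, n = 4). For these 3 genes the arrays lay within 1.17-fold of each other. TPI1, the triosephosphate isomerase, spanned 1.18-fold (9.88 ± 0.11, SD, n = 4) and PGK1, the phosphoglycerate kinase that makes the first ATP of the pathway, 1.17-fold (10.48 ± 0.10, SD, n = 4).

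GAPDH and PGK1 were each printed as 10 spots of 1 probe, so the spread of the array means could be set beside the error that the spots give such a mean. The GAPDH spots of an array had an SD of 0.10 on the log2 scale and gave a standard error of the mean of 0.030, while the array means had an SD of 0.06. For PGK1 the SD among spots was 0.13, the standard error of the mean 0.042 and the SD between arrays 0.10. In both genes the arrays thus differed by more than the error of averaging spots. The 9 or 10 spots used per array gave mean GAPDH signals of 224673, 207855, 225374 and 186118, with replicate 4 dimmest, as was its array median. PGK1 signals were 106714, 103220, 108214 and 83424, in the same order.

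Glucose enters through the facilitative transporters SLC2A1 (GLUT1) and SLC2A3 (GLUT3), and both had probes that disagreed. SLC2A1 showed the widest spread of the list, with levels of 0.03, 3.92, 3.93 and 3.75 on replicates 1 to 4 and replicate 1 far below the others. This spread came from a single discarded spot. The brighter SLC2A1 probe gave 7.87, 8.17 and 7.96 on replicates 2 to 4, and its spot on replicate 1 was left out because its local background was marked as an outlier, so that the gene was represented there by the other probe alone. That probe gave 0.03, -0.03, -0.30 and -0.47. With outlier spots kept, the brighter probe read 7.82 on replicate 1 and the SD of SLC2A1 fell from 1.92 to 0.09. For SLC2A3, a probe that runs across a splice junction was detected on no array (-2.45, -2.45, -2.40 and -3.49), whereas the other was detected on all 4 (0.28, 0.82, 0.05 and 0.16). The median of both gave SLC2A3 levels of -1.08, -0.81, -1.18 and -1.67, and an SD of 0.36.

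Hexokinases trap glucose in the cell as glucose 6-phosphate. HK1, the form of most tissues, was steady at 5.38, 5.57, 5.67 and 5.27 (SD 0.18). HK2, the inducible form common in tumours, had a probe detected on all 4 arrays at 7.17, 7.28, 7.36 and 7.12, and a second one detected on 2 of 4 at -1.80, -0.94, -2.13 and -1.67. The spread of the gene level (2.80 ± 0.25, SD, n = 4) was that of the dim probe, whose SD was 0.50 against 0.11 for the bright one. GPI, which isomerises glucose 6-phosphate to fructose 6-phosphate, was high on replicate 3 only, with levels of 10.05, 10.14, 10.71 and 10.17 (10.27 ± 0.30, SD, n = 4). PGM1 and PGM2, which exchange glucose 1-phosphate and glucose 6-phosphate, were both highest on replicate 3 as well, at 7.17 and 4.15, and elsewhere lay between 6.72 and 6.81 and between 3.58 and 3.88.

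Phosphofructokinase-1 commits the sugar to glycolysis and is a tetramer of the subunits PFKL (liver type), PFKM (muscle type) and PFKP (platelet type). All 3 were detected, but PFKL and PFKM moved in opposite directions on replicate 3. PFKL was highest on replicate 1 and lowest on replicate 3, with levels of 7.94, 7.35, 7.10 and 7.59 (7.49 ± 0.35, SD, n = 4). PFKM had 7.01, 7.07, 7.50 and 7.0 (7.15 ± 0.24, SD, n = 4), with replicate 3 apart from 3 values within 0.07 of each other. PFKP stayed between 8.50 and 8.77 (SD 0.11), and its 2 probes, at a constant distance of 1.11 ± 0.02, moved together. The difference between PFKL and PFKM therefore shifted by 1.32 on the log2 scale between arrays (SD 0.56), more than either gene alone, whereas the difference between PFKM and PFKP had an SD of 0.16.

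The bifunctional PFKFB enzymes set the amount of fructose 2,6-bisphosphate. PFKFB4, a form found in testis and tumours, was steady at 6.48, 6.54, 6.64 and 6.31 (SD 0.14). PFKFB2, the heart form, spanned 1.70-fold between arrays at 1.38, 1.81, 2.14 and 1.57. Both PFKFB2 probes were highest on replicate 3, by 0.85 and 0.26 over the mean of the other arrays. PFKFB3, the inducible form with high kinase activity, had levels of 1.89, 2.00, -0.27 and 1.80, with replicate 3 apart. As for SLC2A1, the local background of 1 spot was marked as an outlier, here on replicate 3, and the brighter probe (3.81, 3.99 and 3.79 on replicates 1, 2 and 4) was lost on that array. With outlier spots kept it read 3.75 and the SD of PFKFB3 fell from 1.08 to 0.11.

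Aldolase splits fructose 1,6-bisphosphate. ALDOA and ALDOC moved together: ALDOC had levels of 8.67, 8.59, 8.57 and 8.39 (SD 0.12), and the difference between the genes had an SD of 0.05, the smallest of 25 pairs of genes compared within a step. Over those 25 pairs the SD of the difference ran from 0.05 to 2.01 with a median of 0.26, and in 7 pairs it was smaller than the SDs of both genes.

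**Figure D2:**
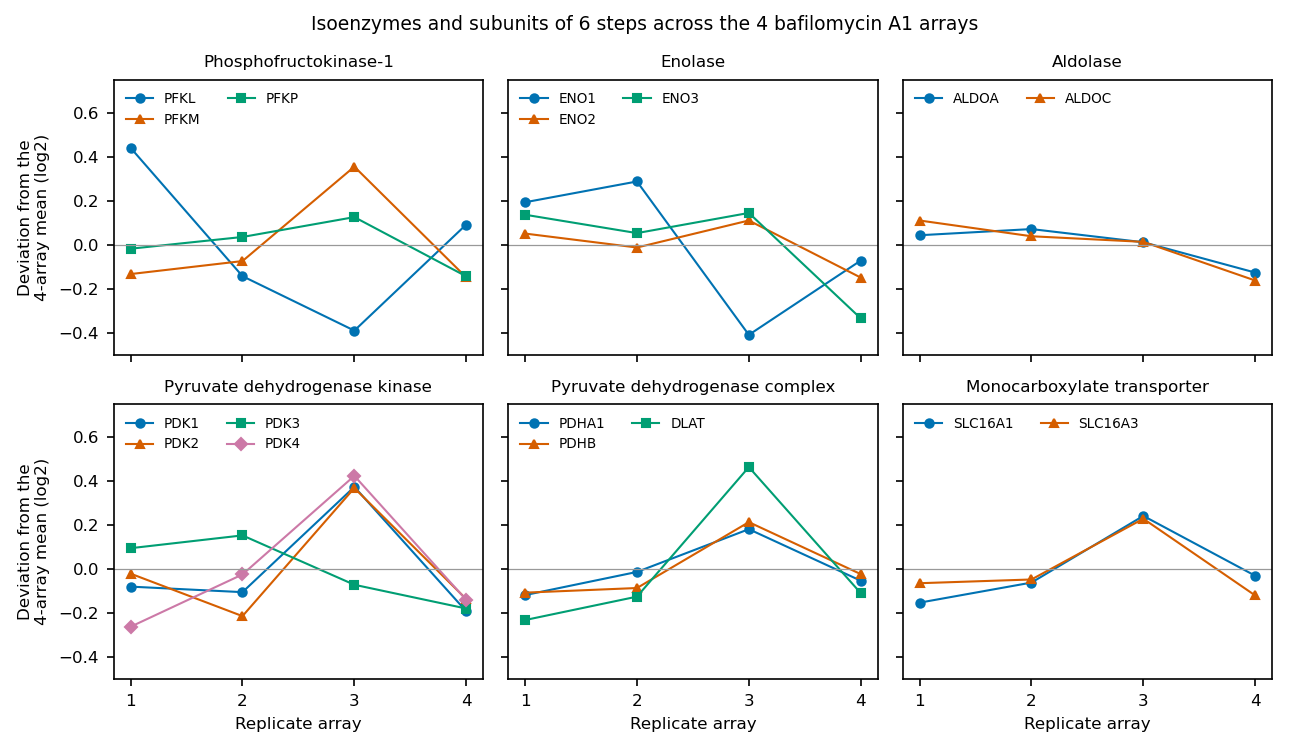
Deviation of each gene from its own mean over the 4 arrays (log2, vertical axis) on replicates 1 to 4 (horizontal axis) for the isoenzymes or subunits of 6 steps; lines only join the values of a gene, since replicates have no order. PFKL and ENO1 are lowest and PFKM highest on replicate 3 within their panels, while ALDOA with ALDOC and SLC16A1 with SLC16A3 nearly coincide, with SDs of the difference of 0.05 and 0.07.

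Further down the pathway, phosphoglycerate mutase and enolase held the members that lay lowest on replicate 3 relative to the other arrays, among those whose probes all had a value on every array. The level of PGAM1, the brain-type mutase found in most tissues, was 7.83, 7.99, 7.17 and 7.64. Its probes did not move alike: the one with a GC content of 35% gave 8.92, 8.85, 9.0 and 8.88 (SD 0.07), while the printed one with 55% gave 6.74, 7.14, 5.34 and 6.41 (SD 0.77), so that only the second was low on replicate 3, with a deviation of -1.43 from the mean of the others. After quantile normalization these deviations were -0.07 and -1.64. ENO1, the enolase of most tissues, had levels of 10.53, 10.62, 9.93 and 10.26 (10.34 ± 0.31, SD, n = 4), lowest on replicate 3. ENO2 gave 5.57, 5.51, 5.63 and 5.37 (SD 0.11) and ENO3 gave 4.61, 4.53, 4.62 and 4.14 (SD 0.23), both highest on replicate 3 and lowest on replicate 4. ENO1 minus ENO2 accordingly shifted by 0.82 between arrays (SD 0.36), and ENO2 minus ENO3 by 0.27 (SD 0.13).

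Lactate dehydrogenase interconverts pyruvate and lactate as a tetramer of LDHA and LDHB subunits. LDHA levels were 9.36, 9.57, 9.12 and 9.32 (9.34 ± 0.19, SD, n = 4), lowest on replicate 3, and LDHB levels were 9.18, 9.33, 9.45 and 9.30 (9.31 ± 0.11, SD, n = 4), highest on it. The low level of LDHA on replicate 3 came from the probe positioned on chromosome 9, which gave 8.47, 8.75, 7.92 and 8.36. The LDHA probe on chromosome 11 gave 10.25, 10.40, 10.32 and 10.28 (SD 0.06), the smallest SD of any of the 47 probes. Both LDHB probes were higher on replicate 3 than on the mean of the other arrays, by 0.25 and 0.11. The shift of LDHA against LDHB by 0.57 between arrays (SD 0.26) thus rested only in part on the rise of LDHB on replicate 3. The rest came from a probe whose given position is not on the chromosome of the other LDHA probe. After quantile normalization the chromosome 9 probe deviated by -0.84 from the mean of the other arrays on replicate 3, and the chromosome 11 probe by -0.20.

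The pyruvate dehydrogenase complex turns pyruvate into acetyl-CoA, and the kinases PDK1 to PDK4 switch it off by phosphorylation. All 4 kinases were detected. PDK1 (4.92, 4.90, 5.37 and 4.81), PDK2 (3.42, 3.22, 3.81 and 3.30) and PDK4 (0.81, 1.05, 1.5 and 0.94) were each highest on replicate 3, by 0.50, 0.49 and 0.57 over the mean of the other arrays. PDK3, at 1.93, 1.99, 1.77 and 1.66, was not higher there and deviated by -0.09 from that mean. PDK1 and PDK2 kept a difference with an SD of 0.08, whereas the difference between PDK3 and PDK4 shifted by 0.85 (SD 0.37). Both PDK2 probes moved alike, with an SD of 0.08 for their difference.

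The complex itself was represented by PDHA1 and PDHB, the subunits of its first enzyme, and DLAT, its acetyltransferase core. PDHA1 (2.90, 3.01, 3.20 and 2.97) and PDHB (5.93, 5.95, 6.25 and 6.02) moved together, with an SD of 0.05 for their difference. DLAT was high on replicate 3 only, at 3.65, 3.75, 4.34 and 3.77 (3.88 ± 0.31, SD, n = 4), the largest excess on that array among members whose probes all had a value on every array. The monocarboxylate transporters SLC16A1 (MCT1) and SLC16A3 (MCT4), which move lactate across the plasma membrane, gave 2.48, 2.58, 2.88 and 2.61 and 10.80, 10.82, 11.09 and 10.74. They too were highest on replicate 3 and kept their difference within an SD of 0.07.

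Of the 12 members with 2 probes, 8 had a mean difference of more than 2 on the log2 scale between them, and in 10 even the dimmer probe was detected on all 4 arrays. The differences ran from 0.00 for TPI1 to 8.87 for HK2. In PDHA1, where the probes differed by 7.92, both moved alike (SD of the difference 0.11). In 3 of those 10, SLC2A1, PGAM1 and LDHA, the probes deviated in opposite directions on replicate 3. The brighter SLC2A1 probe had no value on replicate 1, so its deviation was taken from replicates 2 and 4 only. For LDHA and PGAM1 the opposition depended on the scaling. The deviation of the LDHA probe on chromosome 11 was 0.01 here, -0.08 for the processed signal and -0.20 after quantile normalization. Under quantile normalization both PGAM1 probes were lower as well.

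**Figure D3:**
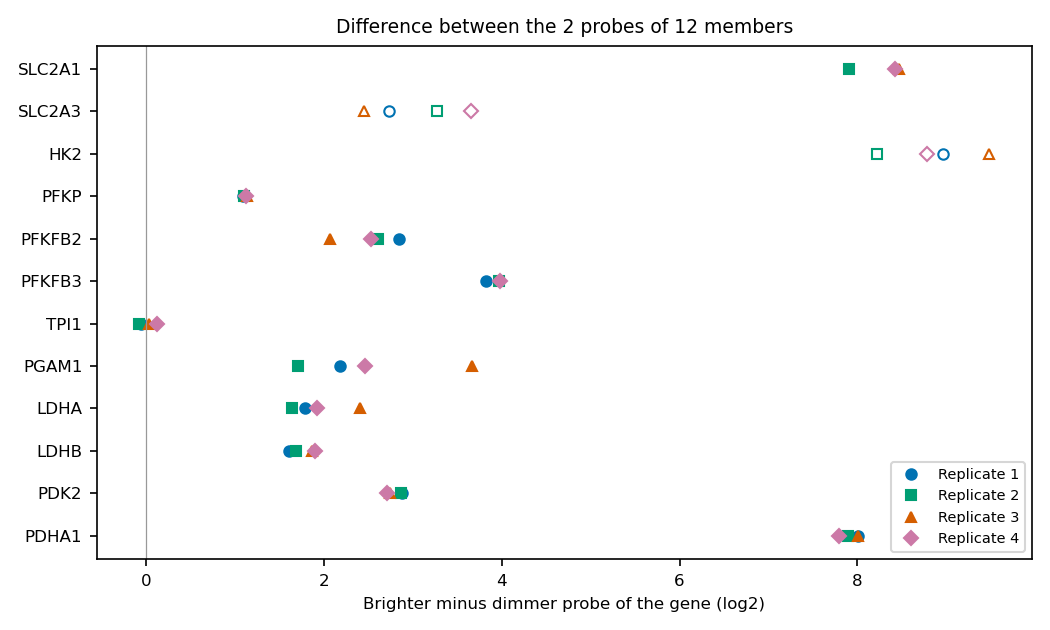
Difference between the brighter and the dimmer probe (log2, horizontal axis) on each of the 4 arrays for the 12 members with 2 probes; marker shape gives the replicate, and open markers stand for genes whose dimmer probe was not detected on all 4 arrays. PFKP and PDK2 keep a constant difference, whereas PGAM1 and LDHA are widest on replicate 3, at 3.67 and 2.40.

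Across the list, 26 of the 34 detected members were higher on replicate 3 than on the mean of the other arrays, beside 63.1% of all detected genes, and the median difference was 0.19, compared with 0.14 over all detected genes. On that array 23 members had their highest level, beside 48.5% of detected genes. The lowest level of 14 members lay on replicate 4, beside 35.1% of detected genes, and that of 11 on replicate 1, beside 26.9%. Replicate 4 was highest for 0 members and for 6.18% of detected genes, and replicate 1 for 3 members and for 20% of detected genes. Replicate 2 was highest for 8 members, beside 25.3%, and lowest for 2, beside 14.8%, and replicate 3 was lowest for 7 members, beside 23.2%. The 8 members that were lower on replicate 3 were HK2, PFKL, PFKFB3, PGAM1, PGAM2, ENO1, LDHA and PDK3. For HK2 this came from the dim probe (-0.66), whereas the bright one was higher by 0.17. For PFKFB3 the deviation was -2.16 with the brighter probe lost and -0.16 with outlier spots kept. How many members were higher depended on the scaling of the arrays, with 23 of 34 for the processed signal of the scanner software and 16 of 34 after quantile normalization, beside 54.95% and 51.79% of all detected probes. The signs given above for PFKL, PGAM1, ENO1, LDHA and PDK3 (lower) and for GPI, PFKM, PDK1, PDK2, PDK4 and DLAT (higher) held under both. The mean over the detected members deviated from its 4-array average by -0.10, 0.08, 0.09 and -0.07 on replicates 1 to 4, an SD of 0.10, and the mean over all detected genes had an SD of 0.07. With outlier spots kept the deviations on replicates 1 to 4 were -0.03, 0.04, 0.11 and -0.11 (SD 0.09). Without SLC2A1 and PFKFB3 they were -0.03, 0.04, 0.12 and -0.12 (SD 0.10).

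Replicate 3 was also the array with the most outlier spots, 2249 against 514, 725 and 527 on replicates 1, 2 and 4, and its departure was related to the GC content of the probes. Over the 42 probes of members detected on all 4 arrays, the difference between replicate 3 and the mean of the others was lower at higher GC content (Pearson's r = -0.51, Spearman's rho = -0.49), and over all 24633 detected probes of the array the values were -0.39 and -0.44. For the mean level of the probe in place of GC content, r and rho were -0.08 and -0.15 over the member probes. Over all detected probes they were 0.22 and 0.26, of the other sign. The probes share the same arrays and, in part, the same genes, and the coefficients are descriptions. Among member probes with a GC content under 50%, 4 of 32 were lower on replicate 3 and the median difference was 0.24, while with 50% or more 5 of 10 were lower and the median was -0.07. For all detected probes the corresponding shares were 27.6% and 60.3%, with medians of 0.22 and -0.09. PFKL, ENO1 and the low PGAM1 probe belong to the second class, as do GAPDH and SLC16A3, which were higher on replicate 3 by 0.13 and 0.31 at the same 55%. PDK3, the chromosome 9 probe of LDHA and 1 probe each of SLC2A1 and SLC2A3 were the 4 probes of the first class that were lower. The part of GC content or of probe level in these differences was not tested.

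**Figure D4:**
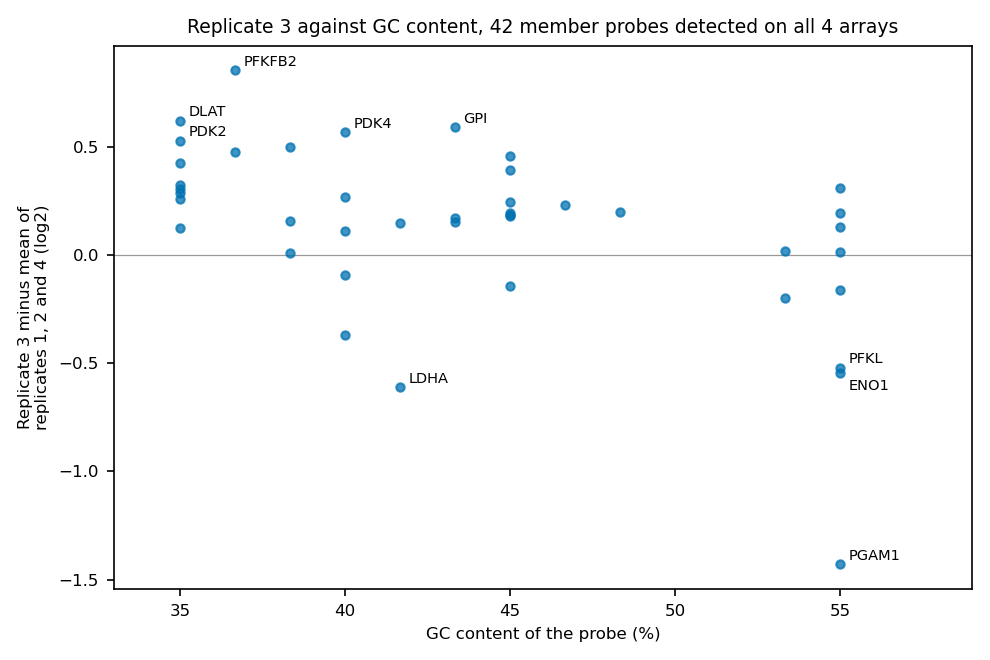
Difference between replicate 3 and the mean of replicates 1, 2 and 4 (log2, vertical axis) against the GC content of the probe (percent, horizontal axis) for the 42 member probes detected on all 4 arrays; genes beyond 0.5 in either direction are named. Most probes under 50% lie above 0, and the lowest points at 55% are PGAM1, ENO1 and PFKL.

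Genes outside the list complete several of these steps. Of 41 such genes 29 were detected, and their median SD was 0.18. PKM, the pyruvate kinase of most tissues and listed under its older symbol PKM2, had levels of 9.84, 9.78, 10.00 and 9.74 (9.84 ± 0.12, SD, n = 4), and the liver and red cell form PKLR was detected as well (-0.50 ± 0.26, SD, n = 4). The subunits of the mitochondrial pyruvate carrier were detected at 3.11, 3.26, 3.46 and 3.20 for MPC1 and at 5.73, 5.98, 6.05 and 5.87 for MPC2. Of the further parts of the pyruvate dehydrogenase complex, PDHX (3.88 ± 0.21, SD, n = 4) and DLD (-0.23 ± 0.37, SD, n = 4) were highest on replicate 3, like DLAT. The pyruvate dehydrogenase phosphatases PDP1 (9.20 ± 0.18, SD, n = 4) and PDP2 (2.18 ± 0.18, SD, n = 4) were detected, as was BSG, the chaperone of the monocarboxylate transporters, at 6.74, 6.92, 7.05 and 6.82.

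Of these 41 genes, 10 were well above background on no array: SLC2A2, HK3, FBP1, FBP2, GAPDHS, PGK2, LDHAL6B, PDHA2, SLC16A8 and PCK1. Forms of the testis were found on both sides, with GAPDHS, PGK2, PDHA2 and LDHAL6B undetected and LDHC, LDHAL6A and PGAM4 detected on all 4 arrays. Whether transcripts of related genes add to the signals of these probes was not tested. Gluconeogenic enzymes too were found on both sides, with FBP1, FBP2 and PCK1 undetected and PCK2, PC and G6PC3 detected on all 4. The glucose 6-phosphatase G6PC was detected on 1 of the 4 arrays. The tricarboxylic acid cycle was detected in full, 20 of 20 genes at a median SD of 0.19, and the pentose phosphate pathway in 8 of 10 genes at 0.18. In these groups 6 of 20 and 3 of 8 genes spanned more than 1.4-fold, beside 46.4% of all detected genes.

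Marker genes were set beside the label of a colon epithelial line. Detection counts cannot decide that label, since 52.5% of all gene names were detected. Of 10 epithelial markers 8 were detected, with VIL1 and CEACAM5 on no array, and their mean level varied by an SD of 0.08 over the arrays. Of 11 markers of blood, endothelial, fibroblast, liver and glial cells, 5 were flagged on all 4 arrays (PTPRC, CD3E, CDH5, COL1A1 and ACTA2) and PECAM1, COL3A1 and ALB on none. The mean level of those 5 was 0.67, 1.02, 0.80 and 0.29 on replicates 1 to 4. Their part in the levels of the glycolytic genes was not tested.

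No member probe shared a run of 15 or more bases with a probe of another gene of the pathway lists, and 12 shared a run of 15 to 17 bases with some other of the 50599 probes. Promoters were available in RefSeq (GRCh38.p14) for 32 of the 35 genes, not for SLC2A3, PFKFB2 and SLC16A1, each as a window of 300 bases around the start site. The letters ACGTG, the core of the hypoxia response element, occurred on either strand in 12 of 32 of these windows (37.5%) and in 21.6% of 27305 promoters of the same length. The palindrome CACGTG, which contains it, occurred in 5 of 32, those of GAPDH, LDHA, ALDOC, PDHB and PGM2, and in 7.43% of all. A match describes the letters only.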

How the data were processed

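Total RNA of 4 bafilomycin A1 replicates was hybridised to single-colour Agilent arrays, and 3 untreated samples of the same line were not analysed here. For each array the authors deposited the scanner output of Agilent Feature Extraction (version 10.7.3.1, per the labels). Its background-subtracted intensity values are linear and not normalized between arrays, and the deposited p-value and flag per spot state whether the spot differed from background. Each file held 58717 non-control spots, of which 55.6% to 60.4% were well above background, and only the number of arrays and these flags bear on precision.

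Control spots and spots marked as outliers by feature or local background were left out, spots of a probe were averaged, log2 was taken, the array median over non-control probes was subtracted, and the median over probes gave the gene level; these last 3 steps follow the study's methods. Signals at or below 0 were left out on the array concerned. A probe was detected where over 50% of the spots carried the well-above-background flag. A probe with no spot left on an array counted as not detected there. Dixon's ratio at the 95% critical value for 4 values marked genes with 1 array apart, which chance gives for about 5% of genes. With 1 group no test of a difference was made. The statistics were tested on simulated data.

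The members and the lists used beside them (other genes of the pathway, tricarboxylic acid cycle, pentose phosphate pathway, epithelial and other cell markers) were chosen with earlier results of these data known. Values by array were given for members of a step with detected and undetected isoenzymes, the 5 members with the largest and the 3 with the smallest SD, those with 1 array apart, those with detected and undetected probes and those printed as 10 spots, and values for genes that complete a step; the other members named were chosen after their values were seen. Other settings tried were the processed signal less its 75th percentile per array, normexp with an offset of 50 and quantile normalization in limma 3.58.1, outlier spots kept, other probe sets, detection rules and summaries, and leaving out each array. Software was R 4.3.3, and matplotlib 3.10.9, scipy 1.17.1, pandas 2.3.3 and numpy 2.4.6 under Python 3.11.15. Exon and UTR annotation of GRCh37 was not used here.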

Additional observations from a re-analysis of the deposited data

Results flagged for a closer look

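Dixon's ratio, the gap between the extreme array and its nearest neighbour over the range of all 4, passed its 95% critical value for 5 of 63 detected gene levels of the members and the other pathway genes, and chance alone passes about 5% of groups. It marked 3 of the 34 detected members, beside 8.48% of all detected genes. SLC2A1 was low on replicate 1 (ratio 0.953) and PFKFB3 low on replicate 3 (ratio 0.913), the arrays on which the brighter probe of each was left out. PFKM was high on replicate 3 (ratio 0.853). Of the other pathway genes, SLC2A4, the insulin-responsive glucose transporter, was high on replicate 3 (ratio 0.859) and SLC16A7, the monocarboxylate transporter MCT2, was high on replicate 1 (ratio 0.880).

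The same ratio marked 5 of 25 differences between genes of a step. They were SLC2A1 minus SLC2A3 (0.840), PFKFB2 minus PFKFB3 (0.887) and PFKFB3 minus PFKFB4 (0.970), which hold the genes with a lost probe, and PDK1 minus PDK4 (0.884) and PDHA1 minus DLAT (0.856). PDK1 minus PDK4 was 4.11 on replicate 1, where the other arrays gave 3.84 to 3.87. The difference PDHA1 minus DLAT was -1.14 on replicate 3, where the other arrays gave -0.80 to -0.74. The differences share genes, so they are not separate results.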

How the results depend on the processing

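The 34 detected members stayed 34 without any 1 array, and were 35 with the software's flag for a positive and significant signal. They were 30 when every probe of a gene had to be well above background. SLC2A1 and PFKFB3 failed this rule because a left-out spot counted as not detected, and HK2 and SLC2A3 through a dim probe. The median SD of detected members was 0.11 after normexp and quantile normalization, and 0.10 to 0.21 with 1 array left out, lowest without replicate 3. Members spanning more than 1.4-fold numbered 12 for the processed signal, 13 with outlier spots kept and 6 after normexp and quantile normalization. With 1 array left out they numbered 4 to 14, fewest without replicate 3. For the mean over the detected members the SD was 0.051 with the processed signal, 0.043 after normexp and quantile normalization, 0.0918 with only probes well above background on all arrays, and 0.093 to 0.107 with 1 array left out. The deviation of the list mean on replicate 3 was -0.0256 under quantile normalization, and on replicate 4 it was 0.0304 for the processed signal and 0.00716 under quantile normalization. With 1 other array left out, these deviations ran from -0.12 to -0.07 on replicate 1, from 0.05 to 0.11 on replicate 2, from 0.06 to 0.12 on replicate 3 and from -0.11 to -0.04 on replicate 4. Members with 1 array apart numbered 1 instead of 3 with only probes well above background, with only probes that had a value on all arrays, and without SLC2A1 and PFKFB3, an alternative added after seeing the data; Dixon's ratio was not computed with 3 arrays. The cause of these changes was not tested, apart from the left-out spots of SLC2A1 and PFKFB3.

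Of the SDs of the 34 detected members, 20 moved beyond a fixed ratio to their value under the main processing after normexp and quantile normalization. Without replicate 3, 19 did. No paired analysis was possible because the untreated arrays were not analysed here and the treated arrays form 1 group. With 4 arrays, 1 slide and no control, neither an effect of bafilomycin A1 nor one of the slide could be measured, and for dim probes such as those of PGAM2 and SLC2A3, at or below the array median, background weighs more.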
